A study of Mus musculus with 3 samples.

Results

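The genes described here are the angiopoietin receptor gene Tek, its homologue Tie1, the ligand genes Angpt1 and Angpt2, and Ptprb, which encodes the receptor tyrosine phosphatase VE-PTP. They were taken by symbol, through the Ensembl identifiers of the deposited tables, and are 5 of 52661 gene identifiers. All 5 were present in each of the 3 libraries' tables.

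Bulk RNA sequencing was done on sorted mouse mammary cells that the labels name as epithelial and positive for PROCR, the protein C receptor. The gate took cells positive for EpCAM and high in CD49f, the integrin alpha 6 chain, and 3 populations were divided within it, with 1 library each. The CD36+ library came from cells with CD36 and without podoplanin (PDPN), titled Cdh5 positive. The double-negative library came from cells without either protein, also titled Cdh5 positive. The PDPN+ library came from cells with PDPN and without CD36, titled Cdh5 negative. The study's title names TCF4 and ID3 and the differentiation of mammary epithelial stem cells as its subject. No treatment is named for any group, and the sources used here do not state the number of mice, their strain or their age. With 1 library per population no value has a replicate error and no test between populations could be made. The intervals printed with ratios are exact 95% intervals of the counts and cover no more than counting error. They treat reads as independent. They may be too narrow even for counting error, since reads without molecular identifiers may be copies of one molecule.

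Tek, also called Tie2, is a receptor tyrosine kinase of endothelial cells. Angiopoietin 1, made mainly by mural and mesenchymal cells, activates it and holds vessels quiescent. Angiopoietin 2, stored in and released by endothelial cells, acts as a weak or opposing ligand, depending on context. Tie1 has no well-established high-affinity ligand and modulates Tek within receptor complexes. VE-PTP removes phosphate from Tek and from the endothelial cadherin complex.

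Estimated counts summed to 67675778 for CD36+, 51138993 for double-negative and 63871266 for PDPN+. The genes of the gate were read as a check of the labels. Epcam stood at 50.7 CPM (counts scaled to a common library size with TMM factors) in CD36+, 103.6 CPM in double-negative and 560.1 CPM in PDPN+. Itga6, the gene of CD49f, stood at 436, 399 and 1021.4 CPM in the same order, and Procr at 746, 528 and 208 CPM. Pdpn stood at 12.5 CPM in CD36+, 32.3 CPM in double-negative and 830.2 CPM in PDPN+. Cd36 stood at 4766 CPM in CD36+, 1523 CPM in double-negative and 45.1 CPM in PDPN+, so that its transcript was plentiful in double-negative, which was sorted as CD36 negative. The 16 endothelial markers summed to 7681 CPM in CD36+, 5319 CPM in double-negative and 175.0 CPM in PDPN+, and the 10 basal epithelial markers to 107.3, 271.4 and 6119 CPM. The 10 luminal markers summed to 547.5, 426 and 670.3 CPM. They went both ways: of 7 tested between CD36+ and PDPN+, 5 were at least 2-fold higher in CD36+ and 2 lower. Of all 9387 genes tested there, 2375 were at least 2-fold higher in CD36+ and 2633 lower. Between double-negative and PDPN+, 2 luminal markers were higher and 3 lower, beside 2419 higher and 2870 lower of all 9515 genes tested. Kit stood at 130 CPM in CD36+, 108 CPM in double-negative and 7.36 CPM in PDPN+. Krt8 stood at 122.5, 84.4 and 326 CPM in the same order. The CD36+ and double-negative libraries were thus far above PDPN+ in endothelial markers and far below it in Epcam and basal markers. This goes against their epithelial label, while the luminal markers were mixed. Cdh5, at 465 CPM in CD36+, 206 CPM in double-negative and 0.176 CPM in PDPN+, is 1 of the 16 endothelial markers. The titles already name the libraries by Cdh5, so that part of the contrast was given by the labels. In bulk libraries, fewer cells of a type and less RNA per cell cannot be told apart.

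Promoters of Tek and Tie1 are shown first, because both receptor genes stood far above their PDPN+ levels in the CD36+ and double-negative libraries. RefSeq promoter sequences of GRCm38.p6 were matched for 2 of the 5 genes, Tek and Tie1, from 250 bases before to 50 bases after the RefSeq start. For Tek that start is the gene's annotated 5′ end in GENCODE M21, while for Tie1 it lies 212 bases inside the GENCODE gene, so most of the Tie1 window is within that annotated span. Angpt1, Angpt2 and Ptprb are named only. Capitals mark matches, on either strand, to the ETS core AGGAAG or the GATA motif AGATAA. The Tek window lies at chr4:94739039-94739338, plus strand, with 52.0% G and C. The Tie1 window lies at chr4:118489800-118490099, minus strand, with 60.3% G and C.
Tek: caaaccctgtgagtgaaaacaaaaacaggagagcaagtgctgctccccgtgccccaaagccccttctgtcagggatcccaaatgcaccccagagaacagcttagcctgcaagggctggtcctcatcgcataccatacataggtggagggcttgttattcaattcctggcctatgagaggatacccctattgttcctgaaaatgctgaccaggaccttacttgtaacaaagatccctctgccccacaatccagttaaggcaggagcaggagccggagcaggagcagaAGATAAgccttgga
Tie1: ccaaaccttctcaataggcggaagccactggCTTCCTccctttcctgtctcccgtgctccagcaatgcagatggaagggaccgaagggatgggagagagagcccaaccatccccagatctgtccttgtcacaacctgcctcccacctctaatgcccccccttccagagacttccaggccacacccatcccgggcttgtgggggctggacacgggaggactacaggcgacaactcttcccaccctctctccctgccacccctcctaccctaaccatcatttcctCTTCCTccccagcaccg
Both strands were searched in every case. The ETS core AGGAAG had 2 matches in the Tie1 window, both as the reverse complement, and none in that of Tek, and 35.1% of 27025 promoters of the same length held it. The GATA motif AGATAA had 1 match in the Tek window and none in that of Tie1, and 11.4% of promoters held it. The E box CANNTG had 2 matches in Tek and 1 in Tie1 and was held by 72.2% of promoters. The Kruppel-like motif CACCC had 1 match in Tek and 3 in Tie1 and was held by 56.7%. No match in either window was found for a further ETS core (CCGGAA; 15.2% of promoters), the forkhead motif (GTAAACA; 3.55%) and the GC box (GGGCGG; 35.9%). These are matches of letters, not binding sites.

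The receptor gene Tek (ENSMUSG00000006386, chromosome 4, 94739289 to 94874976, plus strand of mm10) had 16201 counts in CD36+, 4739 counts in double-negative and 1 count in PDPN+. This was 273.7 CPM in CD36+, 93.9 CPM in double-negative and 0.0135 CPM in PDPN+. The PDPN+ value lay under the floor of 3 counts, which was 0.0406 CPM in that library, so at this depth Tek in PDPN+ was not distinguishable from no Tek reads. The ratio of CD36+ over PDPN+ was 20239.4 (3632.1 to 799463.8) and that of double-negative over PDPN+ 6941.6 (1245.3 to 274233.8), both resting on a single count in their denominator. Tek was 2.92-fold higher in CD36+ than in double-negative (2.82 to 3.01). On the deposited TPM scale, which corrects for transcript length and scales the libraries otherwise, that fold was 2.01.

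Tie1 (ENSMUSG00000033191, chromosome 4, 118471191 to 118490061, minus strand), the homologue of Tek, had 7134 counts in CD36+, 3565 counts in double-negative and 172 counts in PDPN+. Its levels were 120.5 CPM in CD36+, 70.6 CPM in double-negative and 2.33 CPM in PDPN+. Unlike Tek, Tie1 was thus read above the floor in all 3 libraries. It was 51.8-fold higher in CD36+ than in PDPN+ (44.5 to 60.6) and 30.4-fold higher in double-negative than in PDPN+ (26.1 to 35.6). The gap between CD36+ and double-negative was 1.71-fold (1.64 to 1.78), narrower than that of Tek.

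Angpt2 (ENSMUSG00000031465, chromosome 8, 18690263 to 18741562, minus strand), the ligand gene of endothelial origin, had 16528 counts in CD36+, 13424 counts in double-negative and 846 counts in PDPN+. Its levels were 279 CPM in CD36+, 266 CPM in double-negative and 11.4 CPM in PDPN+. It was 24.4-fold higher in CD36+ than in PDPN+ (22.8 to 26.2) and 23.2-fold higher in double-negative than in PDPN+ (21.7 to 24.9). CD36+ and double-negative stood next to each other, with a ratio of 1.05 (1.03 to 1.07) whose direction turned under total-count scaling (log2 -0.10).

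Angpt1 (ENSMUSG00000022309, chromosome 15, 42424723 to 42676977, minus strand), the activating ligand gene, had 7 counts in CD36+, 11 counts in double-negative and 4 counts in PDPN+. This was 0.118 CPM in CD36+, 0.218 CPM in double-negative and 0.0541 CPM in PDPN+. All 3 libraries were thus close to the floor, and Angpt1 never reached the 10 CPM needed for a call. The ratio of CD36+ over PDPN+ was 2.19 (0.556 to 10.2), that of double-negative over PDPN+ 4.03 (1.19 to 17.4), and that of CD36+ over double-negative 0.543 (0.178 to 1.53). The intervals of the first and the third ratio include 1. Angpt4, the remaining angiopoietin gene, had 0 counts in all 3 libraries, which allows up to 0.0507 CPM in CD36+, 0.0594 CPM in double-negative and 0.0406 CPM in PDPN+.

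Ptprb (ENSMUSG00000020154, chromosome 10, 116275523 to 116389535, plus strand), the VE-PTP gene, had 29686 counts in CD36+, 17790 counts in double-negative and 509 counts in PDPN+. Its levels were 501.5 CPM in CD36+, 352 CPM in double-negative and 6.88 CPM in PDPN+. It was 72.9-fold higher in CD36+ than in PDPN+ (66.8 to 79.7) and 51.2-fold higher in double-negative than in PDPN+ (46.9 to 56.0). Between CD36+ and double-negative the ratio was 1.42 (1.40 to 1.45).

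**Figure D1:**
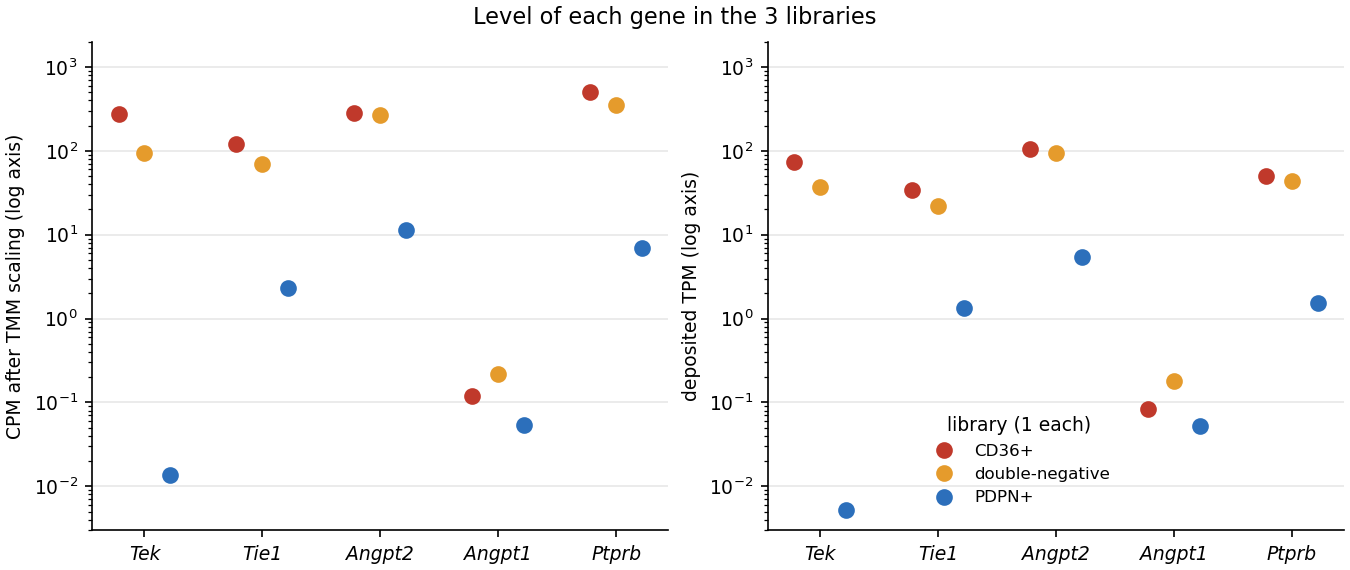
Level of each gene in the CD36+, double-negative and PDPN+ libraries (1 library each) in CPM after TMM scaling (left) and in deposited TPM (right), on log axes. Tek, Tie1, Angpt2 and Ptprb lie lowest in PDPN+ on both scales, Tek at 1 count, and Angpt1 lies under 1 CPM in every library.

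A gene was called apart where its fold was at least 4 with at least 10 CPM in the higher library. Between CD36+ and PDPN+, 4 of the 5 genes were called, all higher in CD36+, while 15.1% of the 9387 genes with at least 10 CPM in either library were called higher, 17.6% lower and 32.7% in either direction. Between double-negative and PDPN+ the same 4 genes were called, all higher in double-negative, beside 14.9% of 9515 genes higher, 19.3% lower and 34.2% in either direction. These comparisons share the PDPN+ library and are not independent. Between CD36+ and double-negative, 0 of the 5 were called, beside 12.2% of 8968 genes higher, 11.9% lower and 24.2% in either direction. The median log2 ratio over all 5 genes was 5.68 for CD36+ over PDPN+, 4.91 for double-negative over PDPN+ and 0.51 for CD36+ over double-negative. Over all genes tested these medians were -0.02, -0.11 and 0.10 in the same order.

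**Figure D2:**
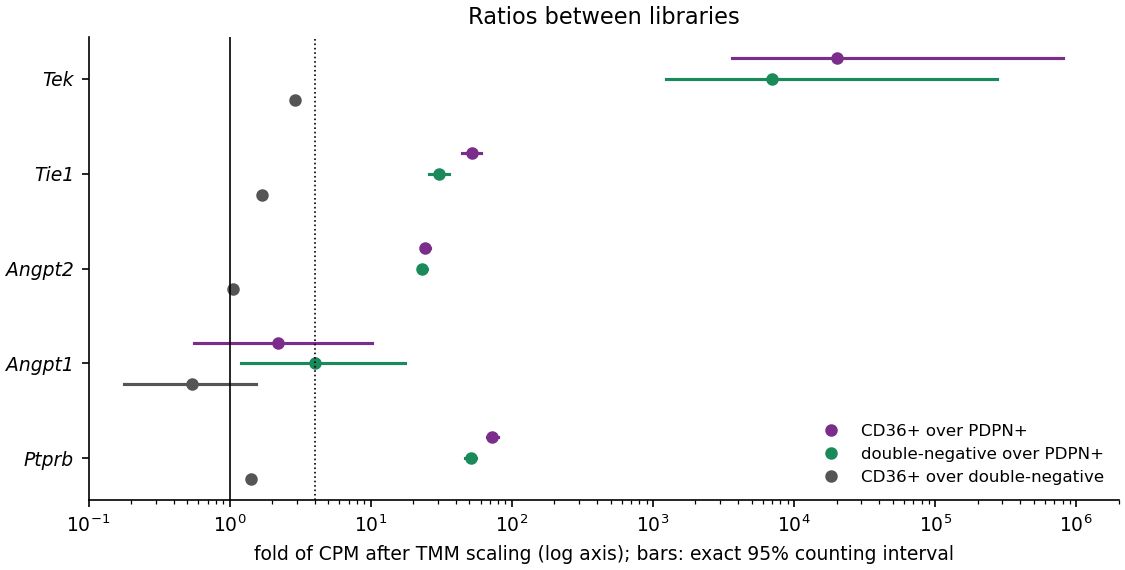
Ratio between libraries for each gene in CPM after TMM scaling, on a log axis, with exact 95% counting intervals as bars, a solid line at 1 and a dotted line at 4. Tek has the widest intervals against PDPN+, where it had 1 count, and the intervals of Angpt1 against PDPN+ and between CD36+ and double-negative span a wide range because it had at most 11 counts.

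Levels of different genes were compared per length, in deposited TPM. In CD36+, Angpt2 stood at 105.3 TPM, Tek at 73.4, Ptprb at 50.2, Tie1 at 34.2 and Angpt1 at 0.0843 TPM. In double-negative the order differed only in that Ptprb (43.9 TPM) lay above Tek (36.6 TPM), a difference that turned with the deposited effective lengths, with Angpt2 at 95.1, Tie1 at 22.01 and Angpt1 at 0.181 TPM. In PDPN+, Angpt2 stood at 5.42 TPM, Ptprb at 1.54, Tie1 at 1.34, Angpt1 at 0.0531 and Tek at 0.00523 TPM. Angpt2 was therefore the most abundant of the 5 per length in each library, except that Tek lay above it in CD36+ when the deposited effective lengths were used in place of TPM, and Tek moved to the last place in PDPN+.

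Angpt2 made up 99.9% of the summed TPM of Angpt1 and Angpt2 in CD36+, 99.8% in double-negative and 99.0% in PDPN+. The summed TPM of both receptors was 107.6 in CD36+, 58.6 in double-negative and 1.35 in PDPN+. Tek exceeded Tie1 by 2.15 times in CD36+ and by 1.66 times in double-negative, while in PDPN+ Tie1 exceeded Tek by 256.6 times, a ratio that rests on the single Tek count. Angpt2 over Tek was 1.43 in CD36+ and 2.60 in double-negative, and Angpt2 over Tie1 was 3.08 in CD36+, 4.32 in double-negative and 4.04 in PDPN+. The ligand-to-Tie1 ratio thus varied far less over the libraries than either gene's own level. Ptprb over Tie1 was 1.47 in CD36+, 1.99 in double-negative and 1.15 in PDPN+. With the deposited effective lengths in place of TPM, Ptprb over Tie1 was 0.868 in CD36+, 1.49 in double-negative and 2.26 in PDPN+, so PDPN+ turned from the lowest to the highest. Angpt2 over Tie1 was then 2.87 in CD36+, 4.38 in double-negative and 7.85 in PDPN+.

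Among the protein-coding genes with reads in a library, 7.98% lay above Angpt2 in TPM in CD36+, 8.19% in double-negative and 50.3% in PDPN+. For Tek the share above it was 10.8% in CD36+, 17.7% in double-negative and 99.0% in PDPN+. For Tie1 it was 18.6% in CD36+, 23.7% in double-negative and 63.9% in PDPN+, and for Ptprb 14.3%, 15.4% and 62.7% in the same order. Angpt1 had 77.3% of these genes above it in CD36+, 68.7% in double-negative and 84.4% in PDPN+.

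The deposited counts and TPM together imply an effective transcript length for each gene in each library. For Ptprb this was 10973 bases in CD36+, 9698 in double-negative and 6900 in PDPN+. The annotation holds coding transcripts of Ptprb with effective lengths near 11725 and 6830 bases. For Tie1 the implied length was 3873 bases in CD36+, 3877 in double-negative and 2670 in PDPN+, where the annotated coding transcripts come to about 3905 and 4048 bases and a noncoding one to 2665 bases. The PDPN+ values rest on 509 counts of Ptprb and 172 of Tie1. For Tek the implied length was 4098 bases in CD36+ and 3101 in double-negative. Its annotated coding transcripts come to about 3990, 4363 and 4468 bases and a noncoding one to 175 bases. The double-negative value of Tek thus lay below every coding one. For Angpt2 the implied length was 2915 bases in CD36+, 3381 in double-negative and 3258 in PDPN+. Its coding transcript comes to about 3374 bases and a noncoding one to 466 bases.

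A CPM fold differs from a TPM fold by the ratio of these lengths and by the scaling of the libraries. In CD36+ over PDPN+, the CPM fold of Ptprb (72.9) was 2.23 times its TPM fold (32.6), of which the lengths gave 1.59. For Tie1 the CPM fold (51.8) was 2.04 times the TPM fold (25.5), of which the lengths gave 1.45. For Angpt2 the CPM fold (24.4) was 1.26 times the TPM fold (19.4), while the lengths gave 0.895. The remaining factor, from TMM against TPM scaling, was 1.405 for Ptprb and Angpt2 and close to that for Tie1. Transcript-level values were not used here, and which transcripts the reads came from was not tested.

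**Figure D3:**
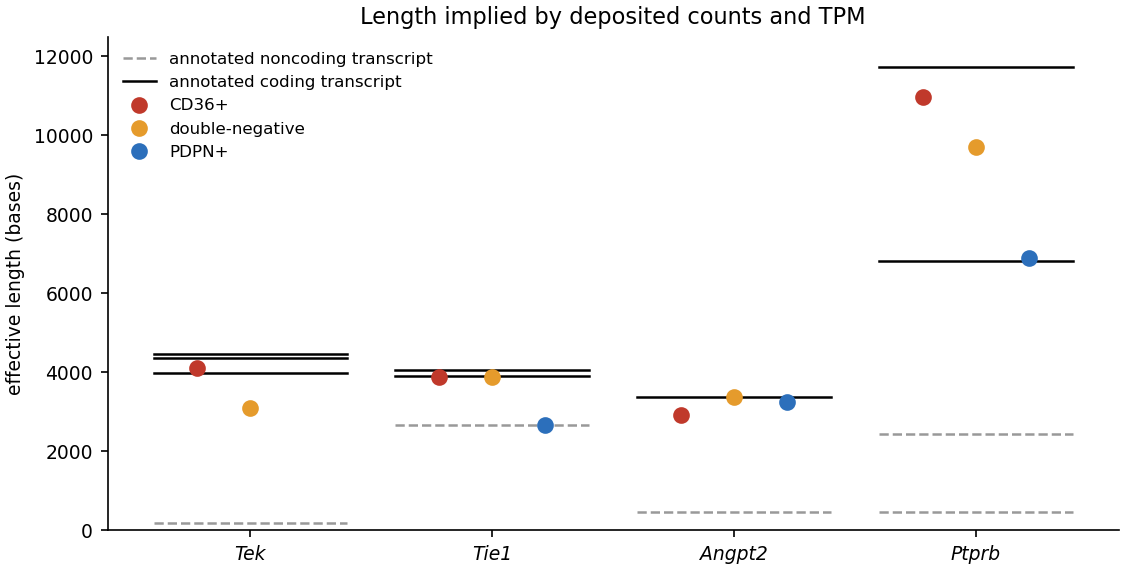
Effective length in bases implied by deposited counts and TPM for each library (points), with the effective lengths of annotated coding transcripts (solid lines) and noncoding transcripts (dashed lines); Angpt1 and the single Tek count of PDPN+ are left out. The PDPN+ points of Ptprb and Tie1 lie below those of CD36+ and double-negative.

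The PDPN+ level of each gene was set against its CD36+ level and against the same measure in 16 endothelial markers. In PDPN+, Angpt2 stood at 4.10%, Tie1 at 1.93% and Ptprb at 1.37% of the CD36+ level. For 11 of the 16 endothelial markers this share lay between 1% and 10%, among them Pecam1, an adhesion molecule of endothelial junctions, at 4.64%, and the VEGF receptor genes Flt1 and Kdr at 1.64% and 1.56%. Tek, at 0.00494%, stood with the 4 markers below 0.1%, which were Robo4 with 0 counts in PDPN+, Egfl7 and Esam with 1 count each and Cdh5 with 13 counts. A low Cdh5 in PDPN+ is already stated by its title. Sox18, at 74.3%, was the remaining marker. Against the double-negative level, more markers lay above 10%: Cldn5 at 18.0%, Plvap at 11.3%, Sox17 at 11.05% and Sox18 at 171.1%. On that measure Angpt2 stood at 4.30%, Tie1 at 3.29%, Ptprb at 1.95% and Tek at 0.0144%. The endothelial genes thus did not share one level in PDPN+, and Tek and Tie1, which encode receptors of one complex, stood in different ranges. This contrast is of counts per gene. The implied length of Tie1 in PDPN+, 2670 bases, lay near that of its noncoding transcript, 2665 bases. The part of endothelial cells in the PDPN+ levels of Tie1, Angpt2 and Ptprb was not tested.

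Of 2613 coding genes with at least 50 CPM in both CD36+ and double-negative, as Tek has, 30 had at most 3 counts in PDPN+, which is 1.15%. Near absence also occurred in the other direction: of 3285 coding genes with at least 50 CPM in PDPN+, 50 had at most 3 counts in CD36+ and 46 in double-negative.

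**Figure D4:**
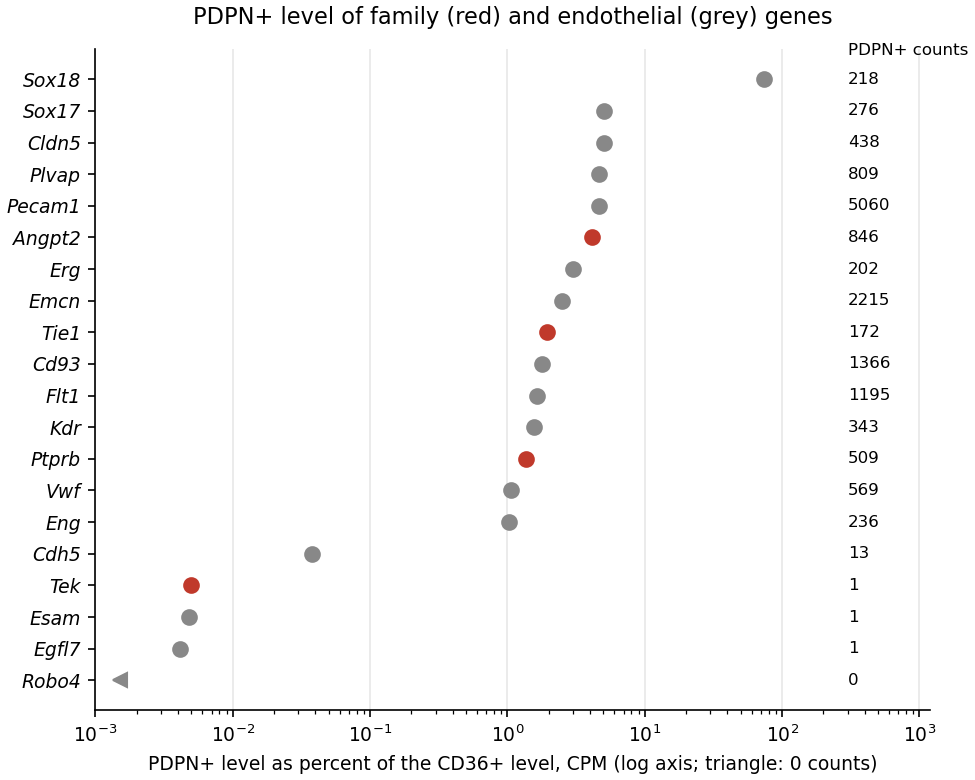
PDPN+ level as a percent of the CD36+ level in CPM, on a log axis, for Tek, Tie1, Angpt2 and Ptprb (red) and 16 endothelial markers (grey), with PDPN+ counts at the right and a triangle for 0 counts. Tie1, Angpt2 and Ptprb lie between 1% and 10% with most markers, and Tek lies at 0.00494% beside Esam and Egfl7.

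Markers of other cells were read beside these results. The 8 mural markers summed to 259 CPM in CD36+, 189 CPM in double-negative and 70.6 CPM in PDPN+, and 3, 6 and 2 of them had at most 3 counts in these libraries. Most of the mural sum was Rgs5, at 241 CPM in CD36+, 164 CPM in double-negative and 51.9 CPM in PDPN+. Members differed in order: Pdgfrb, a receptor of pericytes, had 803 counts in CD36+, 3 in double-negative and 268 in PDPN+, and the channel subunit gene Abcc9 had 50, 1263 and 386 counts in the same order. The 8 fibroblast markers summed to 117 CPM in CD36+, 61.8 CPM in double-negative and 681.8 CPM in PDPN+. Angpt1, which both cell types are known to express, was near the floor in all 3. The 8 haematopoietic markers summed to 15.4 CPM in CD36+, 1.19 CPM in double-negative and 7.19 CPM in PDPN+. The 6 lymphatic endothelial markers summed to 64.4 CPM in CD36+, 3503 CPM in double-negative and 119 CPM in PDPN+, and in double-negative 3462.8 CPM of this was the chemokine gene Ccl21a. The other lymphatic markers differed among themselves. Mmrn1 was called lower in CD36+ than in double-negative, as Ccl21a was, with 0 counts in CD36+, 776 in double-negative and 3216 in PDPN+. Reln had 4, 7 and 1872 counts in the same order. Flt4 stood at 11.9 CPM in CD36+ and 3.09 CPM in double-negative, Prox1 at 18.1 CPM in CD36+ and 21.05 CPM in double-negative, and Lyve1 had 1 count in CD36+ and 2 in double-negative. Tek was lower in double-negative than in CD36+, and the part of lymphatic cells in that was not tested. The 7 venous markers summed to 39936.9 CPM in CD36+, 30850.6 CPM in double-negative and 767 CPM in PDPN+. The largest in CD36+ and double-negative were Ackr1, at 18761.4 and 17174.1 CPM, and Selp, at 15928.7 and 9067 CPM. The venous marker Ephb4 did not follow them, at 18.9 CPM in CD36+, 0.574 CPM in double-negative and 19.0 CPM in PDPN+. The 6 platelet and erythroid markers summed to 72.9 CPM in CD36+, 23.2 CPM in double-negative and 8.94 CPM in PDPN+. The erythroid ones were read in CD36+ alone, and the platelet gene Pf4 had 2 counts in CD36+, 1089 in double-negative and 0 in PDPN+. The other platelet genes did not follow Pf4. Itga2b had 496, 81 and 659 counts in the same order, and Ppbp and Gp9 had at most 2 counts in any library. Endothelial markers had a median log2 ratio of 0.55 for CD36+ over double-negative. Of 15 tested, 0 were at least 2-fold lower in CD36+ and 5 higher, among them Cdh5 (2.26-fold) and Esam (2.44-fold). Of all 8968 genes tested, 2057 were at least 2-fold higher in CD36+ and 1882 lower. Pecam1 and Kdr were closer to even, at 1.27-fold and 1.34-fold, and Erg was lower in CD36+, with a ratio of 0.849.

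Other ligands of the Tie receptors and related proteins were mostly at low levels. Of 9 genes, 1 reached 10 CPM, the angiopoietin-like gene Angptl4, a secreted inhibitor of lipoprotein lipase. It stood at 893 CPM in CD36+, 476 CPM in double-negative and 188 CPM in PDPN+, 4.76-fold higher in CD36+ than in PDPN+ (4.67 to 4.85). Svep1, which encodes a matrix protein reported to bind TIE1 in humans, stood at 0.963 CPM in CD36+, 1.58 CPM in double-negative and 4.15 CPM in PDPN+. Angptl6 was read only in PDPN+, with 0 counts in CD36+, 0 counts in double-negative and 217 counts in PDPN+.

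Genes of signalling downstream of Tek did not move as one group. Of 25 such genes, 17 were tested between CD36+ and PDPN+, with 2 called higher, 1 lower and a median log2 ratio of 0.08. Between double-negative and PDPN+, 18 were tested, with 4 higher, 3 lower and a median of -0.39. Over all genes tested, 15.1% were called higher and 17.6% lower in CD36+ than in PDPN+. For double-negative over PDPN+ these shares were 14.9% and 19.3%. The adaptor gene Nck1 stood at 577.8 CPM in CD36+, 549 CPM in double-negative and 69.5 CPM in PDPN+. Nos3, the endothelial nitric oxide synthase gene, had 979 counts in CD36+, 1498 in double-negative and 3 in PDPN+. Both were called higher against PDPN+ in both comparisons.

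Pak1, a kinase of cell motility, went the other way, at 4.22 CPM in CD36+, 4.83 CPM in double-negative and 35.3 CPM in PDPN+. Akt2, a kinase downstream of Tek, was called apart between CD36+ and double-negative, at 29.5 CPM in CD36+, 0.792 CPM in double-negative and 37.7 CPM in PDPN+. Foxo1, a transcription factor that AKT holds out of the nucleus and that is known to drive Angpt2, stood at 201 CPM in CD36+, 162 CPM in double-negative and 319 CPM in PDPN+ and was not called apart. Rasa1, of the RAS pathway, was not called either, at 133 CPM in CD36+, 73.3 CPM in double-negative and 56.6 CPM in PDPN+. Dok2, a docking protein that binds activated Tek, had 0 counts in CD36+, 0 counts in double-negative and 291 counts in PDPN+.

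Of 10 genes of the junctional complex on which VE-PTP acts, 3 were called higher and 1 lower against PDPN+, both in CD36+ (median log2 ratio 1.37) and in double-negative (1.29). The shares over all genes against PDPN+ were 15.1% higher and 17.6% lower in CD36+, and 14.9% and 19.3% in double-negative. The higher ones were Cdh5, the endothelial cadherin, Kdr, a VEGF receptor, and Fgd5, an exchange factor of endothelial cells. Kdr stood at 298 CPM in CD36+, 223 CPM in double-negative and 4.64 CPM in PDPN+. Jup, which encodes plakoglobin of adherens junctions and desmosomes, was the lower one, at 22.9 CPM in CD36+, 9.55 CPM in double-negative and 153.5 CPM in PDPN+. The beta-catenin gene Ctnnb1 and the small GTPase gene Rap1b were higher in CD36+ than in PDPN+ by 2.28-fold and 3.96-fold, short of the 4-fold needed for a call.

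Among 11 other tyrosine phosphatase genes, 10 were tested against PDPN+ in each comparison, and 1 was called higher and 2 lower in both. These counts were near the shares over all genes. Those were 15.1% higher and 17.6% lower in CD36+, and 14.9% and 19.3% in double-negative. The higher one was Ptprr, whose annotated end lies 590 bases before the start of Ptprb on the same strand. Ptprr stood at 39.5 CPM in CD36+, 29.1 CPM in double-negative and 1.42 CPM in PDPN+, 27.9-fold higher in CD36+ than in PDPN+ (22.9 to 34.2) and 20.5-fold higher in double-negative than in PDPN+ (16.8 to 25.2). Its levels followed the same order over the libraries as those of Ptprb. The lower ones were Ptprf, at 2.16 CPM in CD36+, 1.82 CPM in double-negative and 71.4 CPM in PDPN+, and Ptprs, at 3.63, 0.0594 and 59.3 CPM in the same order. Ptpre and Ptpn1, at 211.5 and 183 CPM in CD36+, 189.5 and 174 CPM in double-negative and 88.5 and 80.7 CPM in PDPN+, were not called apart.

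Integrins serve as further partners of angiopoietins. Of a list of 6 genes, made up of integrin genes and Cd9, 2 were called higher and 1 lower in CD36+ than in PDPN+. In double-negative 1 was called in each direction. Against PDPN+, 15.1% of all genes were called higher and 17.6% lower in CD36+, and 14.9% and 19.3% in double-negative. Itgb3 was 5.52-fold higher in CD36+ than in PDPN+ and Itga5 4.10-fold, and Itgb5 stood at 0.355 CPM in CD36+, 3.37 CPM in double-negative and 36.4 CPM in PDPN+. Itgb1 stood at 618 CPM in CD36+, 777 CPM in double-negative and 887 CPM in PDPN+ and was not called. Of 6 genes of receptor shedding and its inhibition, the inhibitor gene Timp2 was called higher against PDPN+ in both comparisons and Timp3 in that of CD36+ alone, with a fold of 2.42 in double-negative over PDPN+. Adam17, a sheddase gene, stood at 33.6 CPM in CD36+, 28.2 CPM in double-negative and 59.7 CPM in PDPN+.

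A list of 17 transcription factor genes held regulators of endothelial genes, among them ETS factors known to act on Tek, and Tcf4 of the study's title. Most were higher in the libraries that carried Tek. Of 15 tested, 8 were called higher and 1 lower in CD36+ than in PDPN+ (median log2 ratio 3.13), and 8 higher and 1 lower in double-negative than in PDPN+ (median 2.87). The 8 were Ets1, Fli1, Erg, Tal1, Tcf4, Hif1a, Epas1 and Foxc1 in both comparisons. Over all genes, 15.1% were called higher and 17.6% lower in CD36+ than in PDPN+, and 14.9% and 19.3% in double-negative. The ETS factor gene Ets1 stood at 965 CPM in CD36+, 676.5 CPM in double-negative and 19.0 CPM in PDPN+. Fli1 was 85.0-fold higher in CD36+ than in PDPN+ and Hif1a, a hypoxia-inducible factor gene, 8.77-fold. Gata3, a regulator of mammary luminal cells, was the lower one, at 5.54 CPM in CD36+, 4.73 CPM in double-negative and 235.9 CPM in PDPN+. Between CD36+ and double-negative 0 of 14 were called, beside 12.2% of all genes higher and 11.9% lower in CD36+. Foxc2, below the 10 CPM minimum, had 1 count in CD36+, 449 in double-negative and 0 in PDPN+.

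**Figure D5:**
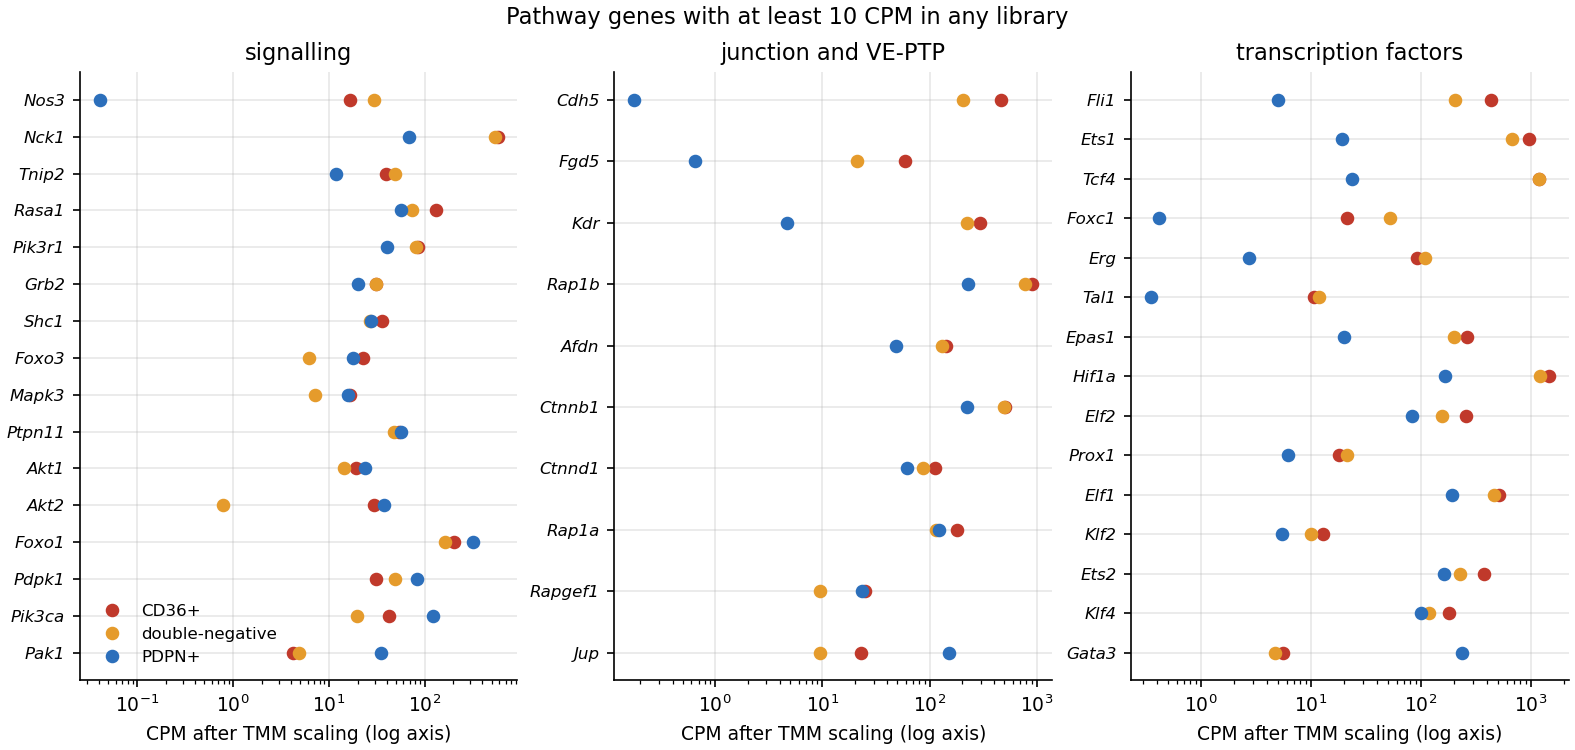
CPM after TMM scaling, on log axes, in CD36+, double-negative and PDPN+ of genes that reached 10 CPM in at least 1 library, other than those not reported here, among signalling genes downstream of Tek (left), junction genes of VE-PTP (middle) and transcription factors (right). The signalling genes lie on both sides of PDPN+, and most of the transcription factors lie above it.

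The genes around each locus were read for shared reads or shared levels. Ift74, the nearest coding gene before Tek, stood at 19.5 CPM in CD36+, 1.84 CPM in double-negative and 46.8 CPM in PDPN+, in another order than Tek. Eqtn, on the other side of Tek, had at most 1 count in any library. Mcph1 overlaps the span of Angpt2 on the opposite strand with 0 shared exon bases, and stood at 18.2 CPM in CD36+, 22.6 CPM in double-negative and 18.5 CPM in PDPN+. Agpat5, the next coding gene, stood at 297 CPM in CD36+, 301.8 CPM in double-negative and 101.1 CPM in PDPN+. Gm17473, an antisense gene that shares 737 exon bases with Angpt1, had 0 counts in all 3 libraries. The sources used here do not state whether counting used strand, so reads within these shared bases cannot be told apart. They are 737 of the 5205 exon bases of Angpt1.

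The genes nearest in pattern to each member other than Angpt1 were found among 9281 coding genes that reached 10 CPM somewhere, by distance in centred log2 CPM over the 3 libraries. Nearest to Tek was Esam, an endothelial adhesion gene, at 282 CPM in CD36+, 115.7 CPM in double-negative and 1 count in PDPN+ (distance 0.23), followed by Lrat and Ifih1. Nearest to Tie1 was Rasip1, a RAP1 effector of endothelial cells, at 271 CPM in CD36+, 156 CPM in double-negative and 5.21 CPM in PDPN+ (distance 0.02), followed by Adamts9 and Abcg2. Nearest to Angpt2 was Ctla2b (distance 0.11), followed by Fry and Csf2rb2. Nearest to Ptprb was Myct1, an endothelial gene, at 506 CPM in CD36+, 369 CPM in double-negative and 7.02 CPM in PDPN+ (distance 0.04), followed by Nt5e and Mustn1. With only 3 libraries many genes lie close to any pattern, and with TPM in place of CPM 0 of these 3 genes remained among the nearest for each of the 4 members.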

How the data were processed

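RNA was measured in 3 libraries, grouped by the labels. Per the submitters' processing notes, the authors used Salmon 0.9.1 and mm10. The deposited tables hold estimated counts per gene and TPM, with length columns. The annotation release, strand setting and filters, and which extraction kit, library kit and instrument served which library, are not stated in the sources used here.

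The estimated counts of the deposited tables were made whole by rounding. Of 52661 identifiers, 52566 matched GENCODE M21, without version suffix, which gave symbols and coordinates. TMM factors came from edgeR 4.0.16 in R 4.3.3, tested on simulated data, and other values from Python 3.11.15, with scipy 1.17.1 for intervals. The simulated libraries differed in few genes, so that test does not cover TMM scaling where many genes differ, as they did here. Log2 ratios used a prior count of 2, and folds in the text none. A fold against 0 counts uses a floor of 3 counts. The deposited gene length columns gave the deposited TPM within 1% for at least 99.9% of genes with 1 transcript. For genes with several, the length implied by counts and TPM was larger by 3.79 times in CD36+ (median), 3.75 in double-negative and 3.77 in PDPN+, so implied lengths were scaled on genes with 1 transcript.

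No p-value is given, since each population had 1 library. Other scalings, TPM, a prior count of 0.5, a fold of 2 and other CPM minimums were tried.

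The members and the 16 gene lists were chosen with earlier results of these data known. Named genes were the members, their neighbours, the 4 most abundant of a list and those against its direction, and the 3 nearest patterns per member. Further genes, such as those called apart in a list, Angpt4, Dok2, Foxc2, Pdgfrb, Flt4, Lyve1 and the endothelial markers set beside Tek, were named after their values were seen. Some genes that the rule takes are not reported here. The comparison of PDPN+ with CD36+ and double-negative levels, the counts of near-absent genes and the implied lengths were also added then.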

Additional observations from a re-analysis of the deposited data

How the results depend on the processing

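Between each of CD36+ and double-negative and PDPN+, the 4 called genes were called under every scaling and setting tried, and all 5 genes kept their order of libraries under TPM. At a fold of 2, 1 gene, Tek, was called between CD36+ and double-negative, against 0 at 4. Over all genes, the calls were 3069 for CD36+ over PDPN+, 3256 for double-negative over PDPN+ and 2167 for CD36+ over double-negative. They became 5008, 5289 and 3939 at a fold of 2, then 6426, 6675 and 5300 at a minimum of 1 CPM, and 8585, 8908 and 7457 with no minimum, in the same order.

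Scaling moved the balance of higher and lower calls. For CD36+ over PDPN+ it was 1415 higher and 1654 lower with TMM, 1120 and 2124 with total counts (median log2 shift -0.40), 1660 and 1381 with upper quartile (0.27), and 1091 and 2046 by TPM. For double-negative over PDPN+ it was 1422 and 1834, 1282 and 2163 (-0.23), 1689 and 1530 (0.28), and 1192 and 2081. For CD36+ over double-negative it was 1097 and 1070, 898 and 1154 with total counts (-0.17), and 839 and 1058 by TPM. Of 75 alternative log2 ratios of the 5 genes, 49 moved by less than the counting interval and 26 by more. Angpt2 for CD36+ over double-negative, log2 0.07, turned to -0.10 with total counts.

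By the deposited effective lengths, Angpt2 over Tek in CD36+ was 0.836 in place of 1.43, Ptprb over Tek in double-negative 0.737 in place of 1.2, and Ptprb over Tie1 in CD36+ 0.868 in place of 1.47. Those length columns and the deposited TPM do not match for genes with several transcripts.

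No paired analysis was possible because each population had 1 library. No library was left out in turn for the same reason. Depth limits Angpt1 in all libraries and Tek in PDPN+.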
